A study of Sus scrofa with 70 samples.

Results

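The miR-200 family of microRNAs (miRNAs) and 3 genes of the same regulatory circuit, ZEB1, ZEB2 and CDH1, were followed through the reproductive glands of the boar. The members were chosen by name. They were every entry of the deposited miRNA table named for miR-200a, miR-200b, miR-200c, miR-141 or miR-429, and the genes ZEB1, ZEB2 and CDH1 of the RNA-seq table. The table gave 3 such entries of 743, ssc-miR-200b, ssc-miR-429 and ssc-miR-141, and miR-200a and miR-200c were not analysed here. The 3 genes were taken from 35550 with an RNA-seq value, which makes 6 members in all. The bulbourethral, prostate and vesicular glands, the epididymis and the testis were collected from 12-month-old boars of the Banna mini-pig inbred line (BMI) and of the Diannan small-ear pigs (DSE) from which that line was bred. Each of the 10 groups of breed and gland had 3 small RNA libraries, 3 RNA-seq libraries and 1 PacBio Iso-seq library of full-length transcripts. A gland therefore had 6 libraries of each short-read kind. The sources used here do not say that the replicates were separate animals, so p-values measure the spread between these libraries, and the BMI animals come from a single inbred line.

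MiRNAs of the miR-200 family pair through their seed, the bases near their 5′ end, with sites after the coding sequence of messenger RNAs and lower the output of those messages. ZEB1 and ZEB2, zinc finger repressors of epithelial genes, are their best known targets, and both repress CDH1 and the miR-200 genes in turn. CDH1 encodes E-cadherin, the adhesion protein of epithelial cell junctions. The accessory sex glands and the epididymis are lined by secretory epithelium, whereas germ cells fill most of the testis.

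The hairpins of the 3 miRNAs are shown because their seeds divide the family into 2 seed groups. They were read on Sscrofa11.1, the build of the deposited files, and capitals mark bases 2 to 8 of the mature miRNA or of the stretch that aligns with it.
ssc-mir-200b, chr6:63490138-63490202, plus strand: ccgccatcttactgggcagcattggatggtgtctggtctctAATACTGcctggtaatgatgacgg
ssc-mir-429, chr6:63491921-63492001, plus strand: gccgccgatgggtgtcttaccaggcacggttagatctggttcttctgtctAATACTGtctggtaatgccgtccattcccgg
ssc-mir-141, chr5:63757578-63757642, minus strand: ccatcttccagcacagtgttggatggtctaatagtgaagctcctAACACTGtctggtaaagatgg

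RefSeq gave a mature sequence for ssc-miR-429 alone, tAATACTGtctggtaatgccgt, at chr6:63491970-63491991. The aligned stretch in the miR-200b hairpin, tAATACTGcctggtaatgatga, matched it at 18 of 22 positions and carried the same seed. Counted from 1 at the 5′ end of miR-429, the differences were T9C, C19A, C20T and T22A. The stretch in the miR-141 hairpin, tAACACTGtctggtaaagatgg, matched at 17 of 22 positions, and 1 of its differences, T4C, lay in the seed. The hairpins of miR-200b and miR-429 were 1718 bases apart on chromosome 6, outside other RefSeq genes and 2757 bases before TTLL10. That of miR-141 lay on chromosome 5 between PHB2, at 1097 bases, and PTPN6, at 4466 bases. In the deposited annotation, which adds Iso-seq transcripts, all 3 hairpins lay in introns of longer transcripts of the same strand. For miR-141 the shortest of these, PB.14779.46, was classified as antisense and spanned chr5:63753012-63758508, and the others ran over 1872107 bases each. Those over miR-200b and miR-429, PB.16068.89 and PB.16068.92, ran over 1432185 and 1542859 bases. The miR-200b value could include reads of a near-identical family member that has no entry of its own, which was not tested.

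The complement of each seed was searched in the bases after the coding sequence of the 3 genes, as CAGTATT for miR-200b and miR-429 and CAGTGTT for miR-141, on the sense strand of the RefSeq transcript. These motifs differ by a single base and no match can overlap with one of the other kind. ZEB1, on chromosome 10, held 5 CAGTATT and 4 CAGTGTT in 1934 bases. ZEB2, on chromosome 15, held 5 and 3 in 4949 bases. CDH1, on chromosome 6, held 0 of either in 1510 bases, so these letters were not in that window. Of RefSeq genes with at least as many bases after the stop codon as ZEB1, 20.4% held CAGTATT at least once and 0.0383% held it 5 times or more. For ZEB2 those shares were 42.2% and 0.0904%. The genes compared include the member itself, and ZEB2 is among those as long as ZEB1. The shares at 5 or more therefore count the members themselves and are no independent background. CAGTGTT occurred at least once in 24.01% of genes as long as ZEB1 and 51.0% as long as ZEB2, and 3 or more times in 3.98% of the latter. Of genes as long as CDH1, 15.99% held CAGTATT and 18.8% held CAGTGTT. All these shares count matches only in as many bases after the stop codon as the member itself has.

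Of the matches in ZEB1 and ZEB2, 6 to the seed of miR-200b and miR-429 were followed by an A, the base that stands opposite the first base of the miRNA at the strongest class of site. They are given with 10 bases on either side, the match in capitals, all on the plus strand.
ZEB1, chr10:42214548-42214574: ttcactttatCAGTATTaattatcact
ZEB1, chr10:42215428-42215454: ttttacctatCAGTATTattttatttc
ZEB1, chr10:42215498-42215524: tcaaacctggCAGTATTaatacccttc
ZEB2, chr15:7627203-7627229: gcacccatgtCAGTATTagaagaatag
ZEB2, chr15:7627289-7627315: ttaattttgtCAGTATTataccaaact
ZEB2, chr15:7627424-7627450: ctgtagtgtaCAGTATTatagttcttc

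In ZEB1 the matches to the seed of miR-200b lay 353 to 1303 bases after the stop codon, and in ZEB2 393 to 1036 bases. The annotation against which the RNA-seq reads were quantified did not reach those of ZEB1. Its ZEB1 transcripts ended at base 42214325 of chromosome 10 against 42216139 in RefSeq, and 0 of the 9 ZEB1 matches lay in one of them. All 8 ZEB2 matches lay in 6 deposited transcripts.

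**Figure D1:**
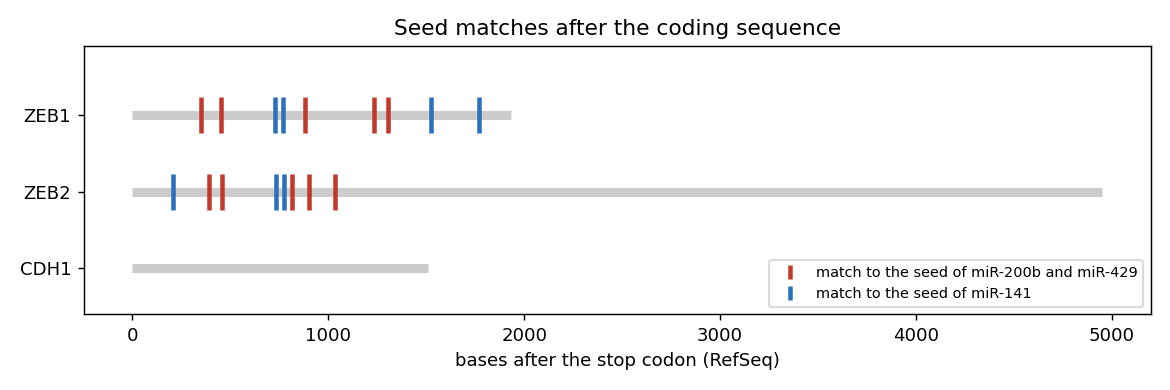
Positions of matches to the 2 seeds in the bases after the stop codon of the longest RefSeq transcript tail of ZEB1, ZEB2 and CDH1 (x axis, bases). Grey bars are drawn to the length of each tail, and ticks mark 9 matches in ZEB1, 8 in ZEB2 and 0 in CDH1.

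Small RNA libraries held 1294630 to 11820100 reads on miRNAs in testis and 13063400 to 21671700 in the other glands, as recovered from the steps of the deposited values. Germ cell markers, in TPM (transcript abundance scaled to a constant library total), summed to at least 23243 in every testis library and to at most 930.3 elsewhere, and the epithelial keratins to at most 12.8 TPM in testis and at least 592 elsewhere. In bulk tissue, fewer cells of a type and less RNA per cell cannot be told apart. The RNA-seq library BMI prostate gland replicate 2 stood apart from its gland. It held 52018 TPM of AWN and 6078 of PSP-II, both seminal plasma spermadhesins, against at most 2.90 and 2.35 in the other 5 prostate libraries and at least 56644 and 16050.4 in the vesicular gland. The comparisons of ZEB1, ZEB2 and CDH1 that include this gland are also given without it, while list counts include it unless said otherwise. Among testis RNA-seq libraries DSE replicate 2 stood apart. It held 23243 TPM of germ cell markers against 66702 to 100946 in the other 5, 63338 TPM of Leydig cell markers against 18526 to 32256, 4029 of Sertoli cell markers against 1114 to 2017.7, and 3724 of mesenchymal genes against 1225 to 1344. In the epididymis, BMI replicate 1 and DSE replicate 2 held 14120 and 6873 TPM summed over 12 mesenchymal genes, against 843 to 2811 in the other 4 libraries, and 550 and 231 TPM over 4 endothelial genes against 40.4 to 176.

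miR-200b had the most reads of the 3 entries in every gland. In RPM, reads scaled to a constant total of miRNA reads per library, it measured 285, 178 and 293 in the BMI testis libraries and 216, 198 and 208 in those of DSE. In the epididymis it measured 6291, 21380.2 and 15409 RPM in BMI and 3717, 1614 and 4035 in DSE. The lowest epididymis library was thus above the highest testis library, and the 3 BMI values all stood above the 3 DSE values, as they did for 93 of 387 entries tested in this gland. In the vesicular gland miR-200b measured 37007, 37266 and 42469 RPM in BMI and 30299, 31063 and 35104 in DSE. In the prostate gland it measured 23559, 36423 and 26969 RPM in BMI and 6900.1, 19719 and 9513 in DSE. In the bulbourethral gland the BMI libraries gave 34196, 37326 and 20951 RPM and the DSE libraries 20489.7, 24116 and 9417. The vesicular gland was the most uniform, with a coefficient of variation of 12.6% over its 6 libraries against 89.8% in the epididymis. By mean RPM, miR-200b ranked 154th of 743 entries in testis, and 9th, 6th, 7th and 4th in epididymis, vesicular, prostate and bulbourethral gland.

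miR-429, which shares the cluster and the seed of miR-200b, had fewer reads in every library. It measured 6.18, 2.71 and 9.55 RPM in BMI testis and 7.39, 11.93 and 9.72 in DSE testis. In the epididymis it measured 165, 538 and 683 RPM in BMI and 255, 47.1 and 139 in DSE. The epididymis held both the highest value of miR-429 in any library and the second lowest outside testis. In the vesicular gland the BMI libraries gave 542, 209 and 378 RPM and the DSE libraries 228, 203 and 237. In the prostate gland miR-429 measured 226, 211 and 158 RPM in BMI and 42.8, 111 and 52.7 in DSE. In the bulbourethral gland it measured 465, 359 and 340.5 RPM in BMI and 204, 282 and 184 in DSE. In both of these glands the breeds did not overlap, with BMI higher, as was the case for 11.4% of all entries tested in prostate gland and 40.3% in bulbourethral gland.

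miR-141, whose seed differs, was close to the detection limit in testis. Its values there were 2.32, 3.10 and 2.20 RPM in BMI and 1.01, 4.82 and 1.60 in DSE, from 3, 8, 6, 3, 57 and 11 reads. A count of 0 would have allowed up to 2.32 RPM in the shallowest of these libraries, BMI testis replicate 1. In the epididymis miR-141 measured 37.4, 257 and 213 RPM in BMI and 109, 14.2 and 60.1 in DSE. BMI replicate 1 and DSE replicate 2, the libraries numbered as those with the high mesenchymal sums, were the lowest of their breed for all 3 miRNAs. The vesicular gland gave 428, 265 and 311 RPM in BMI and 353, 262 and 283 in DSE. The prostate gland gave 302, 194 and 345 RPM in BMI and 146, 306 and 194 in DSE, and the bulbourethral gland 205, 189 and 229 in BMI and 170.4, 191 and 178 in DSE. In the vesicular, prostate and bulbourethral glands, the accessory glands, miR-141 spread by at most 2.36 times within a gland.

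**Figure D2:**
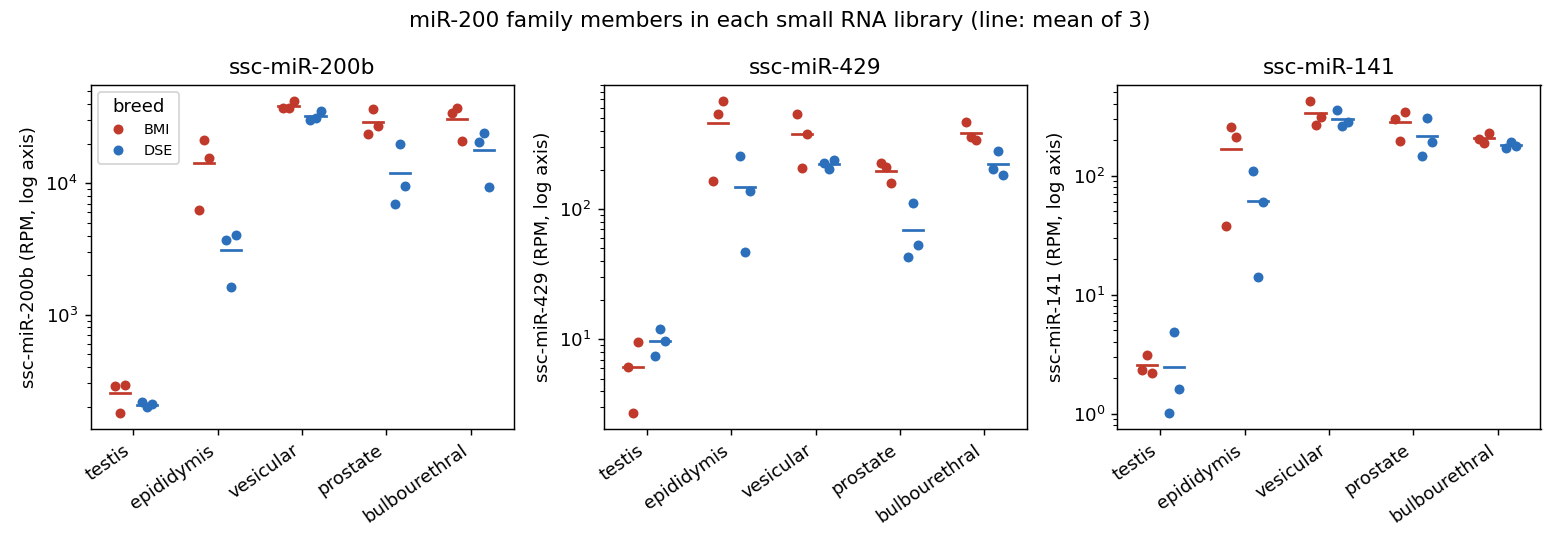
RPM (log axis) of miR-200b, miR-429 and miR-141 in each of 30 small RNA libraries, by gland (x axis) and breed (colour), with lines at the means of 3. All 6 testis libraries lie below all 24 others in each panel, and miR-200b reaches 42469 RPM in the vesicular gland.

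The makeup of the family differed between glands. miR-200b made up 91.1% to 98.9% of the summed RPM of the 3 entries in every library. The sum itself was 0.0222% of miRNA reads in testis by the median over 6 libraries, 0.536% in epididymis, and 2.21%, 2.31% and 3.67% in prostate, bulbourethral and vesicular gland. The ratio of miR-200b to miR-429, which lie in 1 cluster, had a median of 30.0 in testis and 31.7 in epididymis, and of 79.5, 140.6 and 172 in bulbourethral, vesicular and prostate gland. The ratio ranged from 14.6 to 39.7 over the epididymis libraries and from 51.2 to 180.4 over those of the accessory glands, so these did not overlap. The ratio of miR-429 to miR-141 was 2.10 to 4.41 in epididymis and 0.272 to 1.08 in prostate gland. Ligation and counting differ between miRNA sequences, so the ratios compare glands and not amounts of molecules.

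CDH1 followed the epithelial glands. It measured 0.92, 1.07 and 1.20 TPM in BMI testis and 2.02, 1.39 and 1.94 in DSE testis, against 40.2 TPM or more in every other library. In the epididymis it measured 113, 101 and 121 TPM in BMI and 40.2, 119 and 99.6 in DSE. In the vesicular gland it measured 167, 217 and 154 TPM in BMI and 106, 158 and 156 in DSE, the highest median of the 5 glands. The prostate gland gave 67.5, 104 and 58.8 TPM in BMI and 88.1, 59.1 and 81.1 in DSE. The bulbourethral gland gave 94.6, 137 and 124 TPM in BMI and 126, 90.4 and 164 in DSE. Apart from testis, neighbouring glands in the order of CDH1 medians overlapped.

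ZEB1 did not set testis apart from the other glands. It measured 6.98, 6.43 and 5.49 TPM in BMI testis and 5.54, 5.13 and 6.80 in DSE testis. In the epididymis it measured 33.3, 9.82 and 4.76 TPM in BMI and 4.06, 36.8 and 16.9 in DSE, a range of 9.06 times in 1 gland. Its 2 highest values were those of BMI replicate 1 and DSE replicate 2. In the vesicular gland ZEB1 measured 2.04, 7.80 and 2.57 TPM in BMI and 0.98, 3.83 and 1.86 in DSE. In the prostate gland it measured 4.44, 5.77 and 2.93 TPM in BMI and 11.15, 8.04 and 8.22 in DSE, so the breeds did not overlap, as for 39.8% of all genes tested in this gland, 38.0% with BMI lower. The bulbourethral gland gave 2.24, 5.44 and 6.82 TPM in BMI and 5.26, 1.08 and 7.61 in DSE. The medians ran from 2.31 TPM in vesicular gland, 5.35 in bulbourethral gland and 5.99 in testis to 6.90 in prostate gland and 13.4 in epididymis, and neighbouring glands in this order overlapped.

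ZEB2 was highest in testis by the median, at 16.01 TPM. Its libraries there gave 16.4, 15.7 and 10.9 TPM in BMI and 10.5, 29.9 and 18.4 in DSE. In the epididymis ZEB2 measured 33.4, 5.81 and 3.52 TPM in BMI and 3.19, 29.7 and 12.7 in DSE, with the same 2 libraries on top as for ZEB1. In the vesicular gland it measured 1.69, 6.04 and 1.9 TPM in BMI and 0.94, 2.97 and 0.87 in DSE. In the prostate gland it measured 3.69, 3.99 and 1.84 TPM in BMI and 7.71, 6.21 and 5.57 in DSE, again without overlap of the breeds and with BMI lower, as for 38.0% of genes. The bulbourethral gland gave 2.12, 5.65 and 4.49 TPM in BMI and 4.41, 1.95 and 9.33 in DSE. The ratio of ZEB1 to ZEB2 was 0.172 to 0.531 in testis and at least 0.999 in every epididymis, vesicular and prostate library. In the bulbourethral gland it was 0.553 to 1.52, with a median of 1.01.

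**Figure D3:**
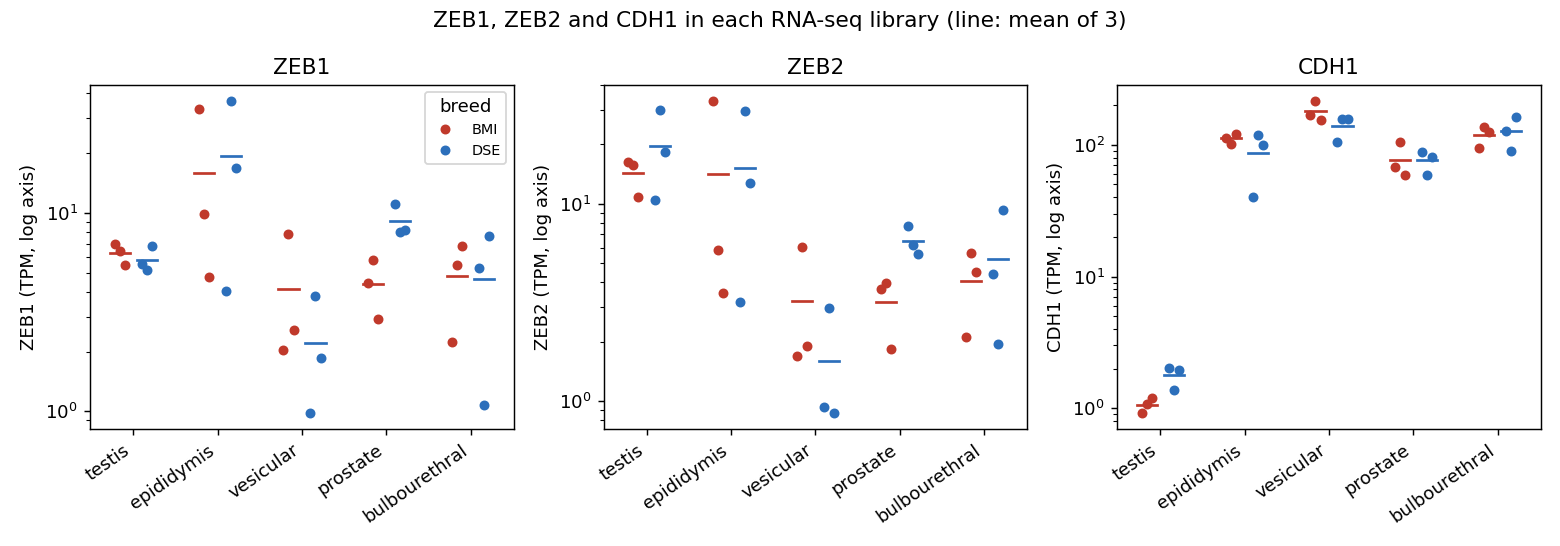
TPM (log axis) of ZEB1, ZEB2 and CDH1 in each of 30 RNA-seq libraries, by gland (x axis) and breed (colour), with lines at the means of 3. CDH1 separates testis from the other glands without overlap, while ZEB1 and ZEB2 spread most in the epididymis, where they run from 4.06 to 36.8 and from 3.19 to 33.4 TPM.

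Comparisons between glands asked how the circuit differed as the glands separate, testis first, then epididymis, then the accessory glands. limma was fitted to log2(value + 1) over all entries or genes with at least 1 RPM or TPM in 3 libraries. A member was called at a Benjamini-Hochberg adjusted p under 0.05, taken over everything tested, with a log2 difference of at least 1. Because of the added 1, these differences understate changes of low values.

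Testis stood below the other 4 glands for all 3 miRNAs and for CDH1. miR-200b fell by 6.23 on the log2 scale (SE 0.242, limma adjusted p = 1.43e-17). miR-141 fell by 5.79 (SE 0.327, limma adjusted p = 3.04e-14) and miR-429 fell by 4.67 (SE 0.294, limma adjusted p = 2.51e-13). Among all miRNA entries tested, 63.3% were called in this comparison, but the median difference was 1.34 towards testis and 22 of the 333 calls were lower there. The members thus moved against the shift of the table. All 3 stayed called under each of 12 alternatives, with the difference of miR-200b between -8.25 and -5.98. CDH1 fell by 5.50 (SE 0.172, limma adjusted p = 1.70e-19), where 47.3% of genes were called and the median over all genes was 0.31. ZEB2 rose by 1.61 (SE 0.367, limma adjusted p = 0.000391), and the testis range was reached by 3 epididymis libraries. Its highest testis value was that of DSE replicate 2, and without that library ZEB2 gave 1.43 (adjusted p = 0.00331). Without BMI prostate gland replicate 2 CDH1 gave -5.47 and ZEB2 1.63, both called, and ZEB1 0.11. ZEB1 gave 0.08 (95% interval -0.64 to 0.81, limma adjusted p = 0.833), and -0.09 after scaling by size factors.

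The epididymis held less miR-200b and miR-141 than the accessory glands and more ZEB1 and ZEB2. miR-200b fell by 1.98 (SE 0.250, limma adjusted p = 1.72e-06) and miR-141 by 1.65 (SE 0.338, limma adjusted p = 0.000652), against a background of 14.6% of entries called. miR-429 gave 0.05 (95% interval -0.57 to 0.68) and ranged from -0.48 to 0.37 over the alternatives, so it was not called in either direction. ZEB1 rose by 1.43 (SE 0.364, limma adjusted p = 0.00204) and ZEB2 by 1.33 (SE 0.380, limma adjusted p = 0.00510). Of all genes, 20.1% were called here, and the median over genes was 0.41. CDH1 gave -0.26 (95% interval -0.63 to 0.11), not called. Without BMI prostate gland replicate 2 these differences were 1.46 for ZEB1 and 1.35 for ZEB2, both called, and -0.22 for CDH1. After scaling by size factors ZEB1 gave 0.91 and ZEB2 0.83, both under the fold limit. Without BMI epididymis replicate 1, ZEB1 gave 1.08 and stayed called, and ZEB2 gave 0.89 and did not. The 5 smooth muscle genes of the marker list all rose in the epididymis, and their sum was 2291 to 20837 TPM there and 150 to 4363 in the accessory glands. miR-143-3p, a miRNA of smooth muscle, made up 23.1% to 78.8% of miRNA reads in the epididymis and 1.38% to 50.6% in the accessory glands. Their part in the result was not tested.

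Within the accessory glands the vesicular gland was above the prostate gland for 3 members. miR-200b rose by 1.002 (SE 0.306, limma adjusted p = 0.0197) and miR-429 by 1.32 (SE 0.372, limma adjusted p = 0.0137), with 14.4% of entries called. Of 15 stromal, endothelial and blood miRNAs 8 fell and 0 rose in the same comparison, with a list median of -1.01 beside -0.16 over all entries, 60 of which fell, and their part in the result was not tested. Neither stayed called without replicate 1 (0.81 for miR-200b, 1.06 for miR-429) or without replicate 3 (0.87 for miR-200b, 1.12 for miR-429). miR-143-3p made up 4.18% of miRNA reads in BMI vesicular gland replicate 1, which held the most miR-429 of its gland, against 29.9% to 35.6% in the others. In BMI prostate gland replicate 3 it made up 3.01%, against 29.4% to 50.6%. The part of these libraries was not tested. CDH1 rose by 1.05 (SE 0.218, limma adjusted p = 0.000613), without overlap of the glands, with 14.8% of genes called. Without replicate 2 CDH1 gave 0.97 and without replicate 3 1.002 at an adjusted p of 0.0562, and neither was called. Without the libraries numbered BMI prostate gland replicate 2, the 3 differences were 1.09, 1.34 and 1.17, all called. The vesicular gland genes were seen in the RNA-seq library of that number. ZEB1 gave -0.97 (95% interval -1.89 to -0.05, limma adjusted p = 0.09997) and ZEB2 -0.85 (95% interval -1.81 to 0.11), and without that library -0.88 and -0.78. miR-141 gave 0.40 (95% interval -0.46 to 1.25, limma adjusted p = 0.663).

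Between prostate and bulbourethral gland, where 12.5% of entries were called, miR-429 fell by 1.38 in prostate (SE 0.372, limma adjusted p = 0.0109), and was no longer called without replicate 1 (-1.25) or 3 (-1.34). miR-200b gave -0.34 and miR-141 0.29. CDH1 gave -0.68 (limma adjusted p = 0.0309), under the fold limit, ZEB1 0.50 and ZEB2 0.09. Of the 3 genes 0 were called by limma, with 7.63% of all genes called. Only CDH1 had an unadjusted p under 0.05, as did 29.1% of all genes. Without BMI prostate gland replicate 2 ZEB1 gave 0.41, ZEB2 0.02 and CDH1 -0.80, again with 0 called by limma. Between vesicular and bulbourethral gland limma called 0 of 6 members, against 24.7% of entries and 27.7% of genes. 1 of the 3 miRNAs, miR-200b at 0.66 (95% interval 0.03 to 1.29), and 0 of the genes had an unadjusted p under 0.05, against 42.4% of all entries and 55% of all genes. miR-141 gave 0.69 (95% interval -0.16 to 1.55, limma adjusted p = 0.214) and did not overlap. edgeR on recovered reads called it (1.11, adjusted p = 0.0392) among 32.3% of entries, and size factors brought CDH1 to 1.24, called among 16.8% of genes.

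**Figure D4:**
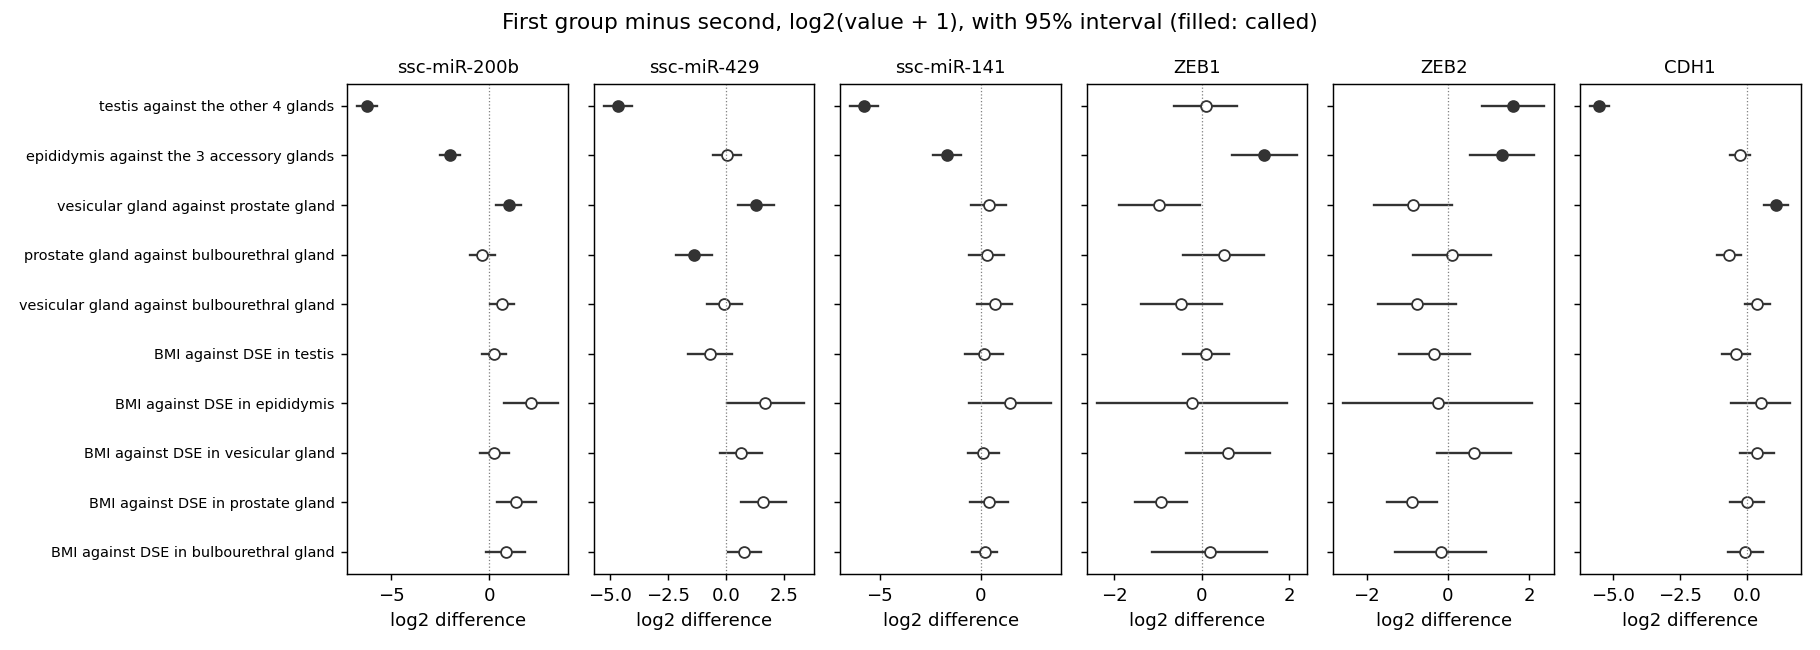
Differences of the 6 members on the log2(value + 1) scale (x axis, first group minus second) with 95% intervals, in 5 comparisons of glands and 5 of breeds, filled where called. The testis row holds the largest miRNA difference, -6.23 for miR-200b, and the largest gene difference, -5.50 for CDH1, and every breed row is open.

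BMI was compared with DSE within each gland, to ask how the inbred line differed from its source population. limma called 0 of 3 miRNAs and 0 of 3 genes in each gland, and edgeR on recovered reads called 0 of the miRNAs. Unadjusted p was under 0.05 for 5 of the 15 differences of miRNAs and for 2 of the 15 of genes, against 24.3% of all 1935 differences of miRNA entries and 14.1% of all 71291 of genes. Of all miRNA entries, 9.48% were called in testis, 0.517% in epididymis, and 0.552%, 0.877% and 1.39% in bulbourethral, vesicular and prostate gland. Of genes, 0.582% were called in testis, 0% (0 genes by limma, 290 of 15300 with an unadjusted p under 0.05) in epididymis, and 0.0878%, 0.882% and 0.358% in bulbourethral, vesicular and prostate gland. With 3 libraries against 3, the smallest p an exact permutation test can give is 0.1, which was reached where groups did not overlap.

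miRNA values were mostly higher in BMI, in 14 of 15 differences, but so was the table. The median over all entries was 0.68 in epididymis, and 0.70, 0.60 and 0.23 in bulbourethral, vesicular and prostate gland. After scaling by size factors 10 of 14 differences were above 0, and those of miR-200b in vesicular gland (-0.36) and of miR-141 in vesicular (-0.49) and bulbourethral gland (-0.57) had turned below it. In the epididymis miR-200b gave 2.14 (95% interval 0.76 to 3.52, limma adjusted p = 0.264), at 14360 ± 7599 RPM (SD, n = 3) in BMI and 3122 ± 1316 in DSE. miR-143-3p made up 53.4%, 23.1% and 43.7% of miRNA reads in the BMI epididymis libraries and 32.8%, 78.8% and 65.0% in those of DSE, and its part in the difference was not tested. With all glands in 1 fit, miR-200b at 2.14 (adjusted p = 0.00636) and miR-429 at 1.72 (adjusted p = 0.0397) were called in the epididymis, where that fit called 54 entries (10.3% of those tested). In the fit of the epididymis alone, size factors brought miR-200b to 1.39 (adjusted p = 0.676).

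In the prostate gland 4 of the 6 members did not overlap between breeds, the miRNAs being higher and the ZEB genes lower in BMI. miR-200b gave 1.39 (95% interval 0.39 to 2.38, limma adjusted p = 0.323), at 28984 ± 6665 RPM in BMI and 12044 ± 6774 in DSE (SD, n = 3 each). miR-429 gave 1.62 (95% interval 0.65 to 2.59, limma adjusted p = 0.133), and both miRNAs were higher in all 3 BMI libraries than in any DSE library (exact permutation p = 0.1), as were 11.4% of all entries tested in this gland. miR-141 overlapped, at 0.41 (95% interval -0.55 to 1.36). ZEB1 gave -0.94 (95% interval -1.53 to -0.34, limma adjusted p = 0.0873) and ZEB2 -0.88 (95% interval -1.49 to -0.26, limma adjusted p = 0.0928), both lower in all 3 BMI libraries. Of all 13415 genes tested there, 5100 (38.0%) were likewise lower in all 3 BMI libraries, and 4495 (33.5%) had an unadjusted p under 0.05. The median over all genes was -0.39 in the same direction, and after size factors ZEB1 gave -0.55 and ZEB2 -0.52. Without BMI prostate gland replicate 2 both were called, ZEB1 at -1.12 (adjusted p = 0.0332) and ZEB2 at -1.03 (adjusted p = 0.0464), in a fit that rests on 2 BMI libraries. Over all genes the calls then rose from 48 to 942 of 13225 (7.12%). miR-429 was called without BMI prostate gland replicate 3 (1.78, adjusted p = 0.00919), where 1.41% of entries were. Smooth muscle genes summed to 409, 2096 and 206 TPM in the BMI prostate libraries and 2850, 1631 and 3485 in those of DSE, and miR-143-3p made up 29.4%, 31.8% and 3.01% of miRNA reads in BMI and 50.6%, 30.7% and 46.3% in DSE. Their part was not tested. CDH1 gave -0.01 (95% interval -0.65 to 0.63) and overlapped, and without BMI prostate gland replicate 2 it gave -0.25 (adjusted p = 0.432).

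In the bulbourethral gland miR-429 gave 0.81 (95% interval 0.10 to 1.52, limma adjusted p = 0.109) and did not overlap, and miR-200b in the vesicular gland did not overlap at 0.28. In these glands 40.3% and 40.4% of all entries were higher in all 3 BMI libraries. CDH1 in testis, at 1.06 ± 0.140 TPM in BMI and 1.79 ± 0.342 in DSE (SD, n = 3), did not overlap either, at -0.43 (95% interval -0.94 to 0.09), where 7.70% of genes were lower in all 3 BMI libraries. In testis miR-200b gave 0.25, miR-141 0.17 and miR-429 -0.68, and all 3 overlapped. A limma F test of whether the breed difference varied between glands gave adjusted p = 0.200 for miR-200b and 0.207 for miR-429, and 0.559 to 0.825 for the other 4 members. In that test 4.75% of miRNA entries and 2.60% of genes had an adjusted p under 0.05.

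Small RNA and RNA-seq libraries of the same breed, gland and number were set side by side within each gland, since testis lies apart from the other glands in pooled values of the summed family. No label says that libraries of the same number come from 1 tissue sample, so these relations rest on that assumption. Of 15 relations between the summed family and a gene, 0 had a Pearson p under 0.05 by exact permutation, and 10 had r below 0. The strongest was ZEB1 in the prostate gland, with r = -0.76 (exact permutation p = 0.0903, adjusted 0.698, n = 6) and rho = -0.83 (exact permutation p = 0.0583, adjusted 0.771). Without the 2 libraries farthest from the median, DSE replicates 1 and 3, r was -0.29, so it rested on them. ZEB2 in the same gland gave r = -0.71 (exact permutation p = 0.117, adjusted 0.698) and -0.40 without them. Leaving out BMI prostate gland replicate 2 instead, r over the 5 other pairs was -0.86 for ZEB1, -0.78 for ZEB2 and -0.93 for CDH1, the last against -0.16 over all 6. Without DSE replicates 1 and 3, r for CDH1 was 0.85, so its sign turned with the libraries left out. Relations of CDH1 ranged from r = -0.59 in bulbourethral gland to 0.52 in vesicular gland.

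**Figure D5:**
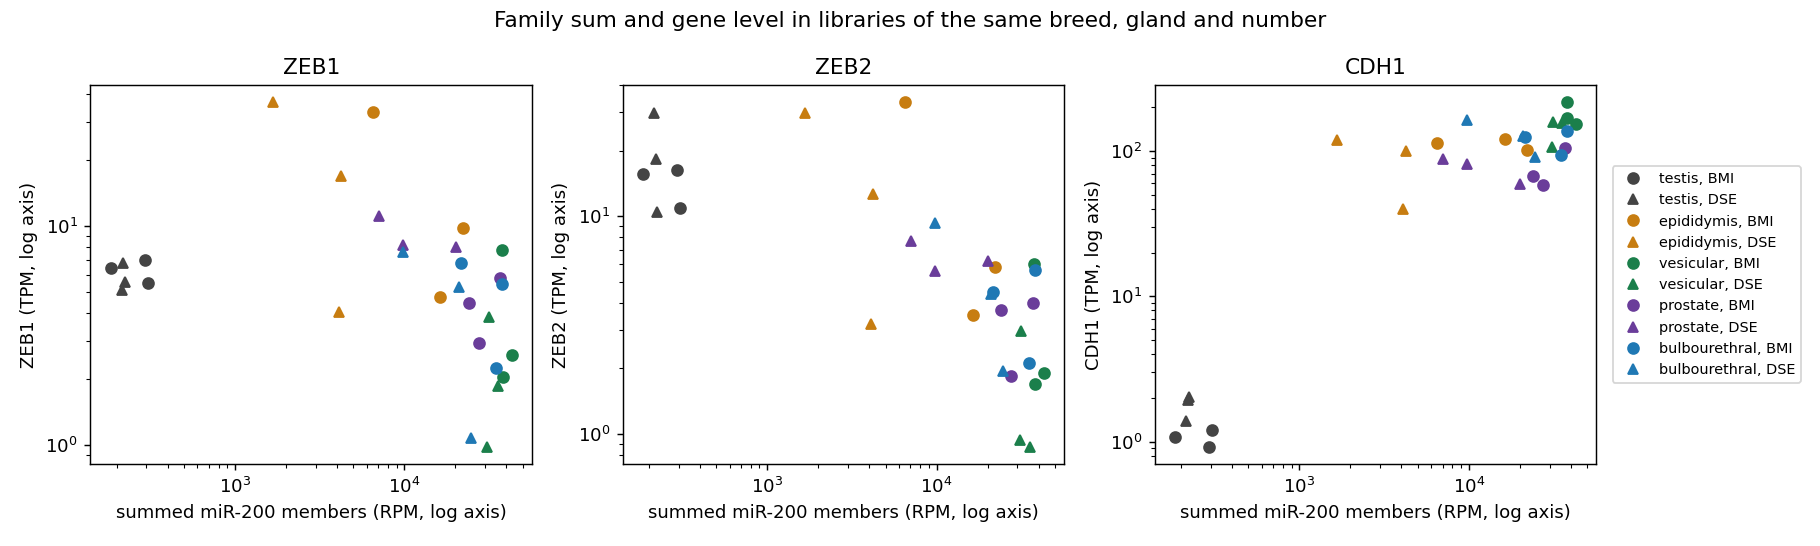
TPM of ZEB1, ZEB2 and CDH1 (y axis, log) against the summed RPM of the 3 miRNAs (x axis, log) in 30 pairs of libraries, coloured by gland and shaped by breed. Testis lies apart at 184 to 305 RPM, while neighbouring glands among the others overlap, up to the vesicular gland at 30879.8 to 43157. No trend over all points was computed.

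Full-length Iso-seq reads gave a separate view of the 3 genes, from 1 library per group and so with no test. CDH1 had 3 reads in BMI testis and 2 in DSE testis, of 455023 and 457778 reads. That is 6.59 RPM (95% exact Poisson interval 1.36 to 19.3) and 4.37 (0.529 to 15.8), here scaled to the full-length reads counted on the deposited isoforms. The prostate gland gave 1827 RPM (1667 to 1998) in BMI and 268 (215 to 329) in DSE, where RNA-seq gave means of 76.9 and 76.1 TPM. The libraries outside testis held 90 to 481 CDH1 reads, apart from the DSE epididymis with 9 of 231413 reads, or 38.9 RPM (17.8 to 73.8), against 541 (475 to 612) in the BMI epididymis. ZEB1 had 11 to 110 reads per library and was highest in DSE prostate gland, at 327 RPM (269 to 395), against 140.5 (98.9 to 194) in BMI prostate gland. It was lowest in testis, at 24.2 RPM (12.1 to 43.3) in BMI and 41.5 (24.99 to 64.8) in DSE, where the other 8 libraries gave 95.2 or more. ZEB2 had 10 to 33 reads per library, and was highest in BMI testis, at 72.5 RPM (49.9 to 102). DSE testis gave 34.95 (19.98 to 56.8), within the 30.5 to 56.5 of the 8 libraries of other glands. These intervals cover counting error only.

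1 isoform carried most of CDH1, while ZEB1 and ZEB2 were split over several. The CDH1 isoform PB.15335.14, of 16 exons and 4511 bases, held 2014 of 2136 CDH1 Iso-seq reads (94.3%) and 89.3% of CDH1 TPM, the Iso-seq classification being a new combination of known splice sites. ZEB1 had 16 transcripts with a TPM. PB.2575.10 carried 36.4% of ZEB1 TPM in testis and 7.43% to 11.3% in the other glands. PB.2575.7 was the largest in each of those other glands, at 20.3% to 30.5%, with 25.2% in epididymis. The isoform with the most ZEB1 Iso-seq reads was another, PB.2575.2, with 222 of 418 (53.1%), and it carried 2.55% of ZEB1 TPM, so the isoform shares of the assays differed. ZEB2 was annotated as 2 Ensembl genes, ENSSSCG00000053606 and ENSSSCG00000021343, joined by Iso-seq isoforms classified as fusions, which held 80.6% of its 160 Iso-seq reads. PB.7008.2, which spans both, carried 39.7% of ZEB2 TPM.

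An antisense gene overlapped the start of ZEB1, and its level was highest in testis. It lay at chr10:41895078-42014163 on the minus strand, with 7 transcripts, while ZEB1 lay at chr10:42013040-42214325 on the plus strand. It measured 11.6 to 35.7 TPM in testis (median 25.5) and at most 6.73 in any other library. Iso-seq gave it 43 reads in BMI testis, 89 in DSE testis and 0 to 4 in each of the other libraries. Whether the RNA-seq libraries kept strand is not given in the sources used here, so reads in the overlap cannot be told apart between ZEB1 and its antisense gene in testis.

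Lists of genes related to the circuit were counted in the same fits. In testis, where 12.7% of all genes were called lower, 18 of 19 epithelial adhesion and polarity genes fell and 0 rose, including CLDN7, a tight junction claudin, which fell by 6.72 on the log2 scale, and SPINT1, a protease inhibitor of epithelia, which fell by 6.17. All 5 epithelial keratins tested fell, and KRT19 fell by 6.87 and KRT18 fell by 6.77. Of 10 epithelial regulators 9 fell, and ESRP1, a splicing factor, fell by 4.99 and EHF, an epithelial transcription factor, fell by 4.69. The medians of these lists, -4.28, -6.45 and -2.70, stood beside 0.31 over all genes. Of 7 EMT transcription factors tested, 0 rose in testis and 3 fell, and without DSE testis replicate 2 1 rose and 4 fell. PRRX1 fell by 1.97 and TWIST2 fell by 1.62. Of 12 mesenchymal genes, 2 rose (34.6% of all genes), VIM by 1.94 and CDH2 by 1.83, and 7 fell. FN1, fibronectin, fell by 4.53 and COL1A1, a collagen, fell by 3.32. Of 11 published miR-200 targets other than ZEB1 and ZEB2, 4 rose and 0 fell in testis, where 34.6% of all genes rose and the list's median was 0.04. QKI, an RNA-binding protein, rose by 2.58, from a mean of 10.3 to 31.2 TPM in the other glands to 107.3 in testis, and WASF3, an actin regulator, rose by 2.26.

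In the epididymis, where 17.7% of all genes rose and 2.42% fell, 6 of the 11 published targets rose against the accessory glands and 0 fell, with a list median of 1.004 beside 0.41 over all genes. PLCG1, a phospholipase, rose by 2.15, and CFL2, a cofilin of muscle, by 1.39. Of 12 mesenchymal genes 5 rose, the collagens COL3A1 by 1.38 and COL1A1 by 1.37 among them, while FN1 fell by 1.86 and LUM fell by 1.49. FN1 averaged 85.02 TPM in epididymis, and 49.1, 198 and 2100 in bulbourethral, prostate and vesicular gland. The prostate mean held 1124 in BMI replicate 2 against 5.59 to 19.8 in the other 5 libraries. FN1 gave -1.48 without that library and was no longer called without DSE testis replicate 2 (adjusted p = 0.0555). Of 19 epithelial adhesion genes 2 rose, among them CDH3, a cadherin, by 1.81, and 0 fell. Of 10 epithelial regulators 1 rose, TP63, a factor of basal cells, by 1.43, and KLF5 fell by 2.06 and EHF fell by 1.67. Of 5 keratins 0 were called by limma in either direction, and 1 rose without BMI prostate gland replicate 2. FOXC2 was the 1 EMT factor that rose, by 1.62. In vesicular against prostate gland 3 published targets fell (2 without BMI prostate gland replicate 2) and 0 rose, where 11.4% of all genes fell, beside a list median of -0.38 and -0.27 over all genes. In the epididymis 63 of all entries tested (12.0%) rose and 14 fell. Of the stromal, endothelial and blood miRNAs, 9 of 15 rose there, miR-145-5p by 2.18 and miR-143-3p by 2.10. In testis, where 59.1% of all entries rose, 7 of 15 rose, miR-126-5p, a miRNA of endothelium, by 2.96 and miR-126-3p by 2.30. Of 6 other epithelial miRNAs, 2 fell in testis, as did 4.18% of all entries, and miR-31 rose by 1.35, close to the median of all entries. miR-205 fell by 4.19 and miR-375 fell by 1.997. miR-375 averaged 107.9 RPM in testis, above the 14.9 of the epididymis and 20.02 of the vesicular gland and below the 5939 of the prostate and 22511 of the bulbourethral gland. In the epididymis 2 of the 6 fell, miR-375, which fell by 7.16, and miR-96-5p, which fell by 1.62. Between breeds in the prostate gland 0 members of the gene and miRNA lists named here were called by limma.

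Markers of other cell types were counted in the same way, against the shares of all genes given above. In testis all 7 germ cell genes tested and all 4 Leydig cell genes rose, PRM1, a protamine, by 13.5 and INSL3 by 13.7, and of 5 Sertoli cell genes 3 rose and 1 fell. In the epididymis 3 of the 7 germ cell genes rose, PRM1 by 4.68 and TNP1 by 3.396 among them, and their sum was 1.29 to 930.3 TPM. Of the Sertoli cell genes CLDN11, a claudin, rose there by 3.91 and CLU, clusterin, by 3.48, while SOX9 fell by 2.11. All 5 smooth muscle genes fell in testis and rose in the epididymis, there with MYH11 by 3.73 and ACTA2 by 3.35. They also rose in prostate against bulbourethral gland (4 of 5 without BMI prostate gland replicate 2), where miR-429 was lower, and in vesicular against bulbourethral gland, where 396 and 814 of all 19795 genes rose. Of 4 endothelial genes, 1 fell in testis, 0 were called in the epididymis and 3 fell in vesicular against prostate gland. Of 4 leukocyte genes 3 fell in testis (4 without BMI prostate gland replicate 2) and 1 rose in the epididymis. Of these lists' part in the levels of the miR-200 family and ZEB genes, none was tested.

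The features most like each member over the 10 group means, on the log2(value + 1) scale, were named by the highest Pearson r. This is a description over groups that share glands. For the summed family they were miR-196b-5p (r = 0.88), miR-582-3p (0.86), miR-135 (0.84), miR-205 (0.84) and miR-582-5p (0.81), among 248 candidates. For CDH1 they were ERBB2 (0.99), MFSD6, RAB25, PRRG2 and ERBB3, among 12223 genes. RAB25, which was also on the adhesion list, measured 0.04 TPM by the mean in testis and 38.3 to 55.3 in the other glands. For ZEB1 they were EHD2 (0.99), CD200, KANK2, NID1 and RNASE1. For ZEB2 they were SNX3 (0.99), RC3H2, PPOX, SOD1 and VIM, the intermediate filament of mesenchymal cells, at 1172 TPM in testis and 162 to 819 elsewhere.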

How the data were processed

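Small RNA and RNA-seq libraries (30 each) and 10 Iso-seq libraries were used. The authors trimmed small RNA reads with cutadapt, removed other small RNAs with bowtie and quantified miRNAs with miRDeep2. The deposited RPM values are normalized to the same total in each library. The authors quantified transcripts with salmon (version 1.9.0 in the submitters' processing notes) against a merged annotation on Sscrofa11.1, and the deposited TPM values were summed here per gene. Iso-seq values are deposited counts of full-length reads per isoform, without normalization. The paper's methods describe poly-T purification for RNA-seq, whereas the labels give rRNA depletion. ZEB2 has no symbol in the deposited annotation and was matched by exon overlap with RefSeq. The authors' structural categories of Iso-seq isoforms were taken as deposited. Predicted miRNAs near the hairpins were not used here.

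limma 3.58.1 (R 4.3.3) was fitted on log2(RPM + 1) or log2(TPM + 1), with at least 1 RPM or TPM in 3 libraries. Glands were compared over all 30 libraries and breeds within each gland alone. The scripts were tested on simulated data. Depth was recovered from the steps of the RPM values. Of low values, 96.8% to 100% were whole reads, within 0.1 reads, in 28 of 30 libraries (93.3% and 94.9% in the other two), and edgeR 4.0.16 on those reads was an alternative, calling 273 entries in testis against the other glands where limma called 333. Other alternatives were size factors, a pseudocount of 0.1, no filter, Ensembl transcripts alone, a replicate block, 1 entry per mature name, 1 fit of all glands for breeds and leaving out replicates. Chosen after seeing the data were ZEB2 from transcripts that reach its last exon, edgeR without 2 libraries, gland fits without BMI epididymis replicate 1, BMI prostate gland replicate 2 or DSE testis replicate 2, gene lists without either of the last 2, and prostate relations without the former of them. 0 pairs of libraries held identical values. Correlations used exact permutation, two-sided, over libraries with the same number.

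Members were followed in every comparison, in detail where called or not overlapping. List members were named for testis and epididymis only, up to 2 with the largest called changes in each direction. 1 such list member is not reported here. The members and lists were chosen with earlier results of these data known. 8 list members had no symbol in the table. Counting intervals cover counting error only.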

Additional observations from a re-analysis of the deposited data

Results flagged for a closer look

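CDH1 in the DSE epididymis replicate 1 lay far from the other libraries of its gland. It measured 40.2 TPM against 99.6 to 121 in the other 5 epididymis libraries, a gap of 0.732 of the whole range, above the Dixon limit for 6 samples. About 1 in 20 such groups is expected to pass by chance, and 30 sets of 6 libraries were examined. The Iso-seq library of the DSE epididymis held 9 CDH1 reads, and the library labels do not say whether it came from the same animal. The epithelial adhesion and polarity genes summed to 2129 TPM in the same RNA-seq library, within the 1603 to 2951 TPM of the epididymis libraries. The epithelial keratins summed to 592 TPM there and the epithelial regulators to 105.04 TPM, each the lowest of the gland, against 715 to 1242 and 157 to 315 in the other 5. The Sertoli cell list summed to 19489 TPM, nearly all from CLU at 19446, against 335 to 3307 in the others. The part of these in the CDH1 value was not tested.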

How the results depend on the processing

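The alternatives gave 728 values for single members, of which 708 kept their side of the threshold, 12 lost a call, 8 gained one and 0 reversed a call. Of values called in neither fit, 41 had the other sign. Counts of called members moved in these settings. With edgeR on recovered reads 1 of 3 miRNAs was called between vesicular and bulbourethral gland, and with 1 fit of all glands 2 were called between breeds in the epididymis. With size factors 0 genes were called in epididymis against the accessory glands and 1 in vesicular against bulbourethral gland. With Ensembl transcripts alone, where ZEB1 and CDH1 fell under the filter in every comparison, 1 gene was called in testis, 0 in epididymis and 0 in vesicular against prostate gland.

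Leaving out replicates, the number of miRNAs called ranged from 3 to 3 in testis, 2 to 2 in epididymis, 0 to 2 in vesicular against prostate gland, 0 to 1 in prostate against bulbourethral gland, and 0 to 1 between breeds in the prostate gland. The number of genes ranged from 2 to 2 in testis, 1 to 2 in epididymis, 0 to 1 in vesicular against prostate gland, and 0 to 2 between breeds in the prostate gland. The others stayed at 0. The causes were not tested.

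With a replicate block 1 miRNA, miR-429, was called between breeds in the prostate gland (1.62, adjusted p = 0.0474), among 8 of 359 entries against 5 without the block. No other count of called members moved. Over all features counts did move between breeds, from 2 to 82 of 362 entries in bulbourethral gland. Calls of genes went from 111 to 673 of 12585 in vesicular gland and from 48 to 0 of 13415 in prostate gland. The numbers were not taken to pair libraries of the breeds, since same-number correlations were not all above 0.1, ranging from -0.59 to -0.18 for miRNAs in the epididymis. They were 0.11 to 0.22 for miRNAs in testis, where the block called 0 members. In testis, depth limits miR-141, with 3 reads in 2 libraries.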
